A study of Mus musculus with 6 samples.

Results

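The genes described here encode the 3 families of proteins that build the core of the postsynaptic density, namely the Dlg proteins (Dlg1, Dlg2, Dlg3 and Dlg4), the Homer proteins (Homer1, Homer2 and Homer3) and the Shank proteins (Shank1, Shank2 and Shank3). Their probe sets, each a group of short probes for 1 transcript, were taken wherever the platform annotation gave 1 of these 10 symbols alone. That gave 22 of the 45037 probe sets on the array that are not controls, for 9 of the 10 genes. None carried the symbol Shank2, which was therefore not analysed here.

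RNA of brains of 1 month old mice was hybridised to 1 array per sample. The series' design describes the tissue as midbrain, including diencephalon and basal ganglia. There were 3 arrays from Dap12-ko mice (67, 68 and Ko1), which lack Dap12, and 3 from Dap12-het mice (75, 76 and 81), which are heterozygous for Dap12. Dap12 is the adaptor protein, encoded by Tyrobp, through which several receptors of microglia signal. No wild-type sample, sex, strain or litter was named, the control group carries the same mutation on 1 allele, and whether each array is 1 animal is not stated. The p-values here therefore speak only to variation among these 6 arrays, some of which may be technical.

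At an excitatory synapse, Dlg proteins lie just under the postsynaptic membrane. With their PDZ domains they hold NMDA receptors, potassium channels, neuroligins and the auxiliary subunits of AMPA receptors in place. Dlgap proteins link Dlg to Shank, which forms the deeper layer, and Homer ties Shank to metabotropic glutamate receptors and to calcium release channels of the endoplasmic reticulum. A short form of Homer1, known as Homer1a, is induced by synaptic activity and lacks the coiled coil through which the long forms join each other.

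Among the Dlg genes, 1 probe set of Dlg4 and 1 of Dlg2 were higher on the knockout arrays by the test. The probe sets of Dlg1, Dlg3, Homer1, Homer2, Homer3 and Shank3 did not pass it. Several Homer1 probe sets differed more between arrays of the same genotype than between genotypes. Of the 22 probe sets, 6 had all 3 knockout arrays above all 3 heterozygous arrays, 0 had all 3 below and 16 overlapped. Over all 45037 probe sets of the array, 16.9% lay wholly above and 7.42% wholly below, and the members' share above is read against that.

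The arrays differed in ways that touch the results below. The deposited signals had been scaled to the same trimmed mean on each array, yet the median signal was between 20.34 and 21.98 on the heterozygous arrays and between 24.68 and 40.41 on the knockout arrays. Of 45 probe sets for spiked bacterial or phage control transcripts, 43 were above all heterozygous arrays on all 3 knockout arrays. The ratio of the 3′ to the 5′ probe set of beta-actin, a sign of RNA integrity, was 1.59 to 2.12 on heterozygous and 1.76 to 2.33 on knockout arrays. For Gapdh it was 0.997 to 1.42 and 0.702 to 1.21. Tyrobp itself gave signals between 68.19 and 77.6 on heterozygous arrays and between 2.277 and 23.67 on knockout arrays (log2 change -1.68 ± 0.33, SE, limma adjusted p = 0.0439). Its knockout mean, 12.9, was under the level needed to enter the test, so it entered only through the heterozygous arrays. Tyrobp did not pass with no filter on level (limma adjusted p = 0.0952). Nor did it with a floor of 1 in place of 16 added, without a trend or on 1 probe set per gene (limma adjusted p = 0.0983, 0.0505 and 0.0527). Every array with a knockout label read lower for it than every array with a heterozygous one. The construct is not named in the sources used here, so whether these probes fall inside the deletion is not known.

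Changes are given on log2(signal + 16) as knockout minus heterozygous with the standard error (SE) of limma's model. They were tested for the 22518 probe sets with a mean over the 6 arrays above the median, and adjusted over all of these. At an adjusted p under 0.05, 1.98% of them passed, 1.24% as increases. Of the 16 member probe sets that entered the test, 2 passed, both as increases, and 14 did not. For both that passed, the heterozygous mean alone was under the level needed to enter the test (a signal of about 24.2) and the knockout mean above it. They entered only through the group in which they were higher, so the count of 2 is no support for a change of the families. The median change of the 16 was 0.25, against 0.00 over all probe sets tested. The value was above 0 for 13 of them, and for 7 once each array was centred on its median, which moved the median of all probe sets tested to -0.40.

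**Figure D1:**
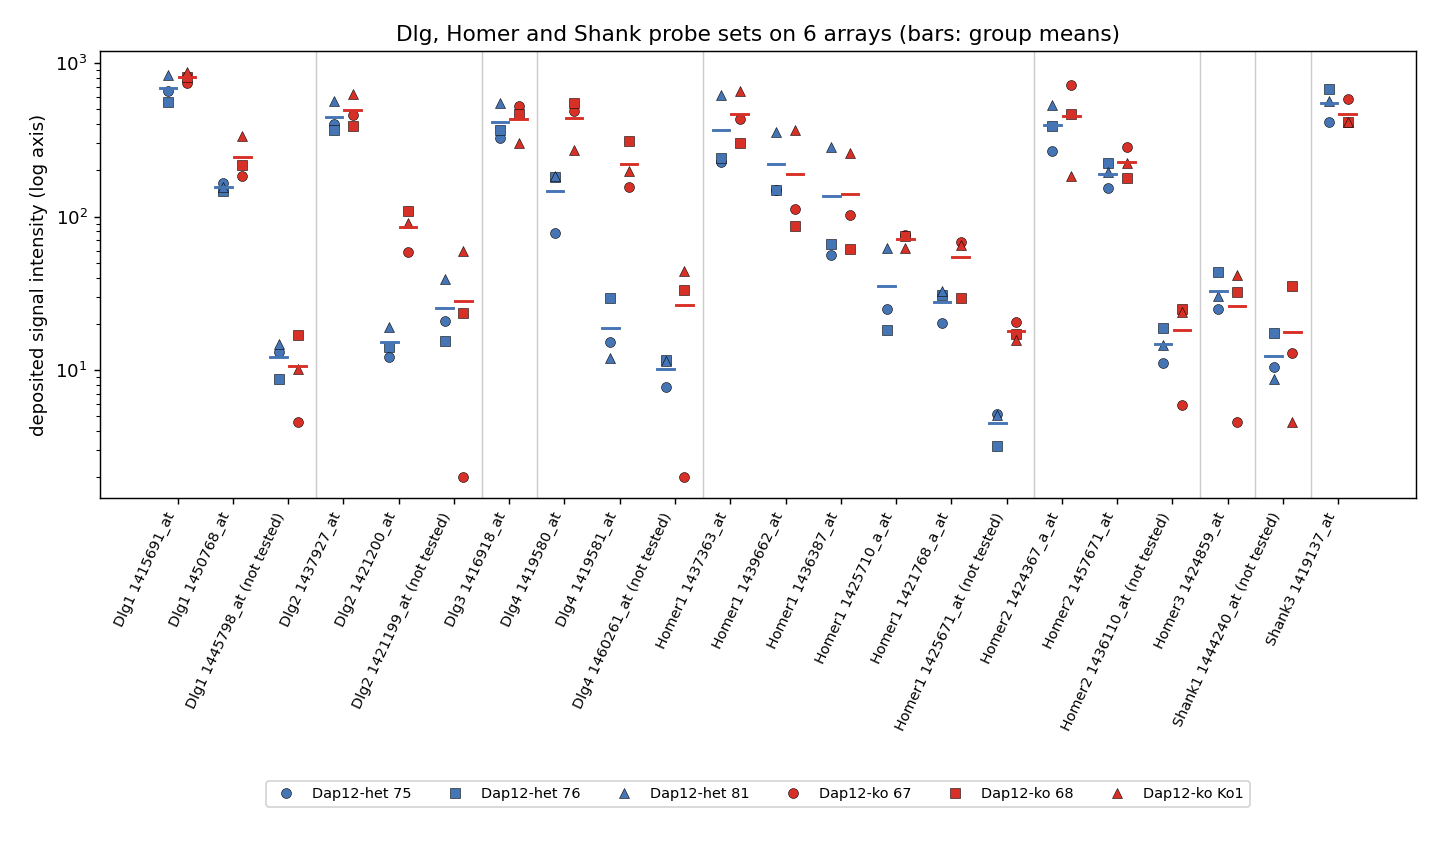
Deposited signal (log axis) of the 22 probe sets of Dlg, Homer and Shank genes on each of 3 Dap12-het arrays (blue) and 3 Dap12-ko arrays (red), with bars at the group means. Both called probe sets, Dlg4 1419581_at and Dlg2 1421200_at, have all red points above all blue points, while the red and blue points of Dlg3, Homer2, Homer3 and Shank3 overlap.

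Dlg4 encodes PSD-95, the most studied scaffold of excitatory synapses, which sets how many AMPA and NMDA receptors a synapse holds. Its 3 probe sets were annotated to the same transcript record. Probe set 1419581_at had signals of 15.31, 29.31 and 12.04 on heterozygous 75, 76 and 81 and of 154.8, 311.5 and 196.7 on knockout 67, 68 and Ko1. Every knockout array was thus far above every heterozygous array. The group means were 18.9 ± 9.17 and 221 ± 81.1 (SD, n = 3), and the log2 change was 2.74 ± 0.31 (limma adjusted p = 0.0171; exact permutation p = 0.10, two-sided, the smallest that 3 against 3 arrays can give).

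The brightest Dlg4 probe set, 1419580_at, gave 77.53, 181.1 and 184.4 on heterozygous 75, 76 and 81 and 485.6, 550.8 and 271.3 on knockout 67, 68 and Ko1. The groups did not overlap here either, but knockout Ko1 lay closer to the heterozygous arrays than the other two. The difference was 1.49 ± 0.36 and did not pass (limma adjusted p = 0.0735). Without knockout Ko1, where 23.2% of all probe sets tested passed against 1.98% with all arrays, the change was 1.79 and passed (adjusted p = 0.00791). Without knockout 67 and 68 together it was 0.89 (adjusted p = 0.282). The third probe set, 1460261_at, was too dim to enter the test, with 7.711, 11.62 and 11.38 on the heterozygous arrays and 2.001, 33.3 and 43.95 on knockout 67, 68 and Ko1. Here knockout 67 was the lowest of all arrays and the other two knockout arrays were the highest, so the groups overlapped.

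The call on 1419581_at was kept without heterozygous 76 or knockout Ko1, where 29 and 5226 of all probe sets tested passed. It was lost without heterozygous 75 (2.68, adjusted p = 0.126) or 81 (2.60, adjusted p = 0.0937) and without knockout 67 (2.95, adjusted p = 0.0583) or 68 (2.48, adjusted p = 0.0982). Without any of those 4 arrays, 0 of all 22518 probe sets passed (limma; 2896 to 3887 at an unadjusted p under 0.05), so the loss is shared by every call on the array. With 64 added to the signal in place of 16 the change was 1.75, still called, and without knockout 67 and 68 together it was 2.64 (adjusted p = 0.0288). Other signals moved with the genotype on the same arrays. The summed signal of 10 general neuron markers was 22081 to 23991 on heterozygous and 26103 to 36600 on knockout arrays. Of their 23 tested probe sets, 4 passed as increases, all of Map2 and Syt1, and 0 as decreases (limma). The share called was 17.4%, against 1.98% over all probe sets tested. The brightest Map2 and Syt1 probe sets were at 0.06 ± 0.18 and 0.27 ± 0.19. Knockout arrays lay wholly above for 7 of the 23, and wholly below for Tubb3 (-0.44 ± 0.17) and 1 probe set of Elavl4 (-0.63 ± 0.18). Over all probe sets of the array, 16.9% lay wholly above and 7.42% wholly below. For 8 oligodendrocyte markers, of which 7 had a probe set, the sum was 50749 to 55963 against 82174 to 210018. Of 20 tested probe sets, 8 rose and 0 fell, a share of 40% against the same 1.98%. These 8 were all of Mbp, Mobp and Mal. Of the 20, 17 were above 0, while Mag was at -0.05 ± 0.38. Mag, Mog and Cldn11 overlapped between genotypes. Sums of the astrocyte list (14688 to 19485 against 20913 to 21799) and the microglia list (2204 to 2746 against 2984 to 3961) were also higher on all knockout arrays, with 0 of 21 and 0 of 12 tested probe sets called (limma). Above 0 were 14 of the 21 and 10 of the 12. The astrocyte sum does not stand for each marker. Tested probe sets of Gfap were at -1.25 ± 0.52, -1.28 ± 0.45 and 0.62 ± 0.30. Those of Slc1a3 ran from -1.79 ± 0.89 to 0.23 ± 0.41, and both genes overlapped between genotypes. The part of these marker lists in the Dlg4 result, and that of the spiked controls above, was not tested. In tissue RNA, more cells of a type and more RNA per cell cannot be told apart.

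Over the 6 arrays, the tested probe sets of other genes with the pattern most like 1419581_at belonged to Tspan2, Tef, Strbp, Syt1 and Kif5a. Likeness was the root mean square difference between log2 values centred over the 6 arrays, and it was 0.17 to 0.21 for these 5, of 19906 compared. Their own changes ran from 2.37 for Kif5a, a motor of axonal transport, to 2.66 for Strbp. Because these probe sets were picked for their likeness to 1419581_at, changes near its own follow from the choice and are no support for it. The heterozygous means of Tef (20.3) and Strbp (23.8) were under the level needed to enter the test. Both entered only through the knockout arrays.

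Dlg2 encodes PSD-93, a close relative of PSD-95 that also binds NMDA receptors and potassium channels. Its probe set 1421200_at had signals of 12.23, 14.03 and 19.16 on heterozygous 75, 76 and 81 and of 58.38, 108.4 and 90.43 on knockout 67, 68 and Ko1. All 3 knockout arrays were above all heterozygous arrays, from a mean of 15.1 ± 3.6 to 85.7 ± 25.3 (SD, n = 3). This was a rise of 1.68 ± 0.28 (limma adjusted p = 0.0326). The call was kept without knockout Ko1 (1.63, adjusted p = 0.00945), where 23.2% of all probe sets tested passed. It was lost when heterozygous 75 (adjusted p = 0.188), 76 (adjusted p = 0.117) or 81 (adjusted p = 0.129) or knockout 67 (adjusted p = 0.0642) or 68 (adjusted p = 0.138) was left out, with changes from 1.52 to 1.89; of all probe sets tested, 29 passed without heterozygous 76 and 0 without each of the others. It was also lost with quantile normalization (1.40, adjusted p = 0.0822), with median centring (1.28, adjusted p = 0.0622) and with no filter on level (adjusted p = 0.0734). With 64 added the change was 0.91, still called.

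The brightest Dlg2 probe set, 1437927_at, showed no such step. It gave 398, 365.1 and 565.5 on the heterozygous arrays and 458.8, 390.8 and 623.6 on knockout 67, 68 and Ko1, and the groups overlapped (0.14 ± 0.24, adjusted p = 0.775). The third, 1421199_at, was annotated to the same transcript record as 1421200_at but read 20.87, 15.43 and 39.26 on heterozygous arrays and 2.012, 23.44 and 59.24 on knockout 67, 68 and Ko1. It was too dim to be tested, and the knockout arrays held both its lowest and its highest value. Of the 3 Dlg2 probe sets, only 1421200_at thus separated the genotypes. On 1437927_at and on the dim 1421199_at, heterozygous 81 and knockout Ko1 were the highest of their groups.

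Dlg1 encodes SAP97, a Dlg protein that also carries AMPA receptors on their way to the membrane. Its bright probe set, 1415691_at, ran from 556.2 to 837.7 on heterozygous and from 740.9 to 876.6 on knockout arrays (0.26 ± 0.20, adjusted p = 0.495), with overlap. For 1450768_at, annotated to the same record, signals of 164.4, 147.1 and 156 on the heterozygous arrays stood against 182.7, 215.7 and 336.8 on knockout 67, 68 and Ko1. The groups did not overlap, since the heterozygous arrays lay close together, but the change of 0.56 ± 0.24 did not pass (adjusted p = 0.236). The third Dlg1 probe set was dim, at most 16.94 on any array.

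Dlg3 encodes SAP102, the Dlg protein that dominates at young synapses, and it lies on the X chromosome. Its single probe set, 1416918_at, gave 322.5, 368.1 and 548.9 on heterozygous 75, 76 and 81 and 521.4, 466.2 and 300.8 on knockout 67, 68 and Ko1. The lowest value of all was that of knockout Ko1 and the highest that of heterozygous 81. The change was 0.05 ± 0.27 (adjusted p = 0.933), and its sign varied with the array left out.

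**Figure D2:**
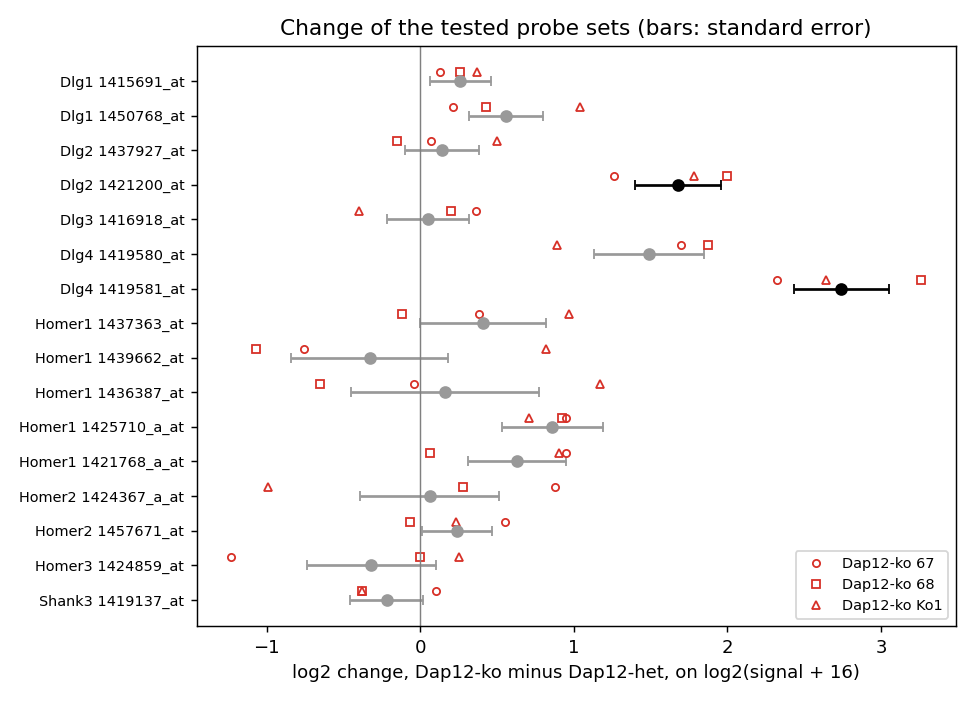
Log2 change, knockout minus heterozygous, of the 16 tested probe sets (filled points, with SE bars; black where the adjusted p was under 0.05) and the same value for each knockout array against the heterozygous mean (open red symbols). Dlg4 1419581_at (2.74) and Dlg2 1421200_at (1.68) are the black points, and for Homer1 1439662_at and 1436387_at knockout Ko1 lies to the right of 0 and knockout 67 and 68 to the left; with median centring 7 of the 16 lie above 0 in place of 13.

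Homer1 was measured by 6 probe sets annotated to 6 different transcript records, and 3 of them varied together from array to array. Probe set 1437363_at, the brightest, gave 228.2, 241.8 and 621.4 on heterozygous 75, 76 and 81 and 430.7, 299.3 and 656.7 on knockout 67, 68 and Ko1. On 1439662_at the values were 149.9, 148.2 and 357.4 against 112.3, 87.31 and 366.7, in the same order of arrays. Probe set 1436387_at gave 56.13, 66.18 and 284.8 against 102.2, 61.09 and 257.5. In all 3, heterozygous 81 was the highest of its group and knockout Ko1 the highest of its own, and both were above every other array.

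The changes of these 3 probe sets between genotypes were 0.41 ± 0.41, -0.33 ± 0.51 and 0.16 ± 0.61 (adjusted p = 0.601, 0.747 and 0.906). Their range within the heterozygous arrays alone was 1.38, 1.19 and 2.06 on the log2 scale, and within the knockout arrays 1.09, 1.89 and 1.83. Without knockout 67 and 68 together, 1439662_at was at 0.82 (adjusted p = 0.344), the opposite sign.

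The same arrays, heterozygous 81 and knockout Ko1, were also the highest of their groups for all 7 tested probe sets of the striatal neuron markers Ppp1r1b, Drd1, Drd2, Rgs9, Penk and Tac1. Over all probe sets tested, 13.8% had this pair of highest arrays. The pair was not particular to Homer1. Among the members it was found for 5 of 16 tested probe sets (31.2%), namely 3 of Homer1, Dlg1 1415691_at and Dlg2 1437927_at. Of the scaffold partners followed below, 28 of 85 tested probe sets (32.9%) had it. Summed signals of the striatal list were 2194, 1532 and 6462 on heterozygous 75, 76 and 81 and 590, 1116 and 7196 on knockout 67, 68 and Ko1. Ppp1r1b, the phosphatase inhibitor DARPP-32 of striatal projection neurons, read 247, 97.19 and 909.3 against 76.15, 126 and 884.1. The thalamic list ran the other way, with sums of 5081, 8148 and 3088 against 8665, 7465 and 2044. Both lists overlapped between genotypes, with 0 of 7 and 0 of 17 tested probe sets called (limma). Other regional lists did hold calls by genotype. Of the hypothalamic list, 3 of 9 tested probe sets, of Dlk1 and Baiap3, were called lower on knockout arrays. Of the midbrain dopamine list, 1 of 8, of Nr4a2, was called lower. Neither list had a probe set called higher, and the cortical and cerebellar lists had 0 of 4 and 0 of 5 called. Shares called were 33.3% of the hypothalamic and 12.5% of the midbrain dopamine list, against 1.98% over all probe sets tested. The part of regional make-up in the Homer1 values was not tested.

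**Figure D3:**
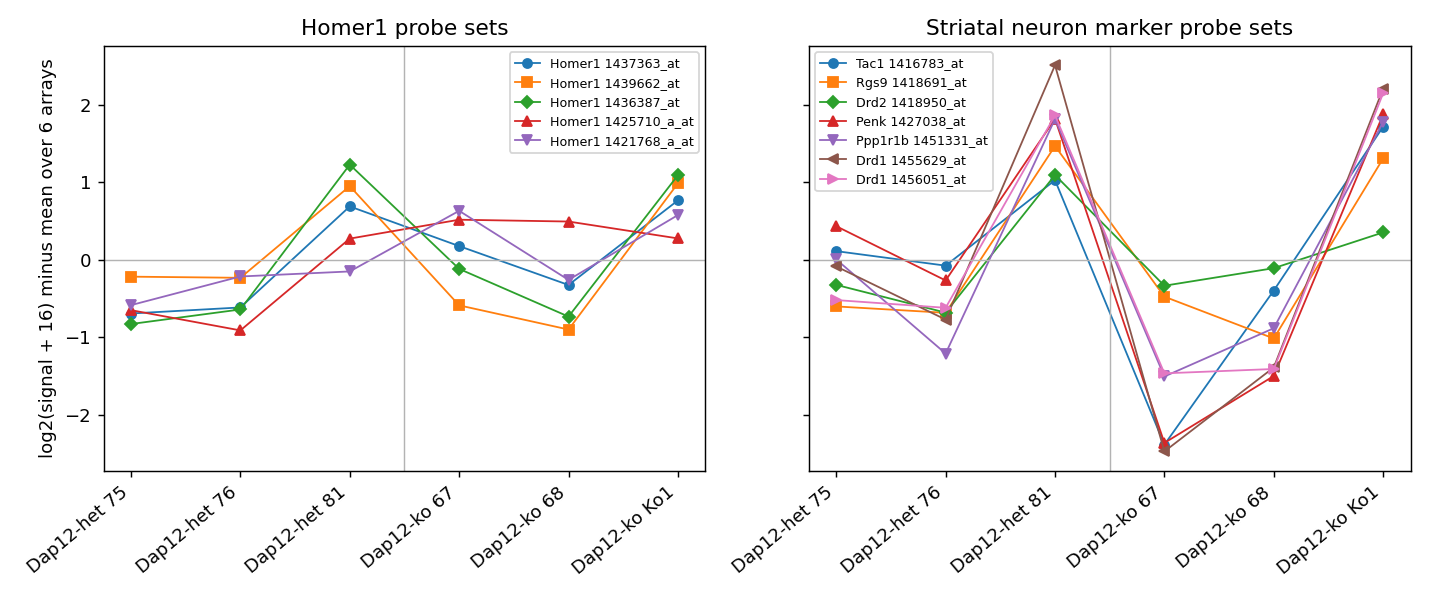
Left, log2(signal + 16) of the 5 tested Homer1 probe sets, each minus its mean over the 6 arrays; right, the same for 7 tested probe sets of striatal neuron markers; lines join arrays of 1 probe set and carry no order. Homer1 1437363_at, 1439662_at and 1436387_at and all 7 striatal probe sets peak on heterozygous 81 within the heterozygous group and on knockout Ko1 within the knockout group.

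The dimmer Homer1 probe sets had another order of arrays. On 1425710_a_at the heterozygous arrays gave 25.06, 18.25 and 61.95 and knockout 67, 68 and Ko1 gave 76.34, 74.84 and 62.09. All knockout arrays were above all heterozygous arrays, though Ko1 and heterozygous 81 were nearly equal (0.86 ± 0.33, adjusted p = 0.187). On 1421768_a_at the signals were 20.16, 30.74 and 32.9 against 68.18, 29.34 and 65.03, where knockout 68 fell inside the heterozygous range (0.63 ± 0.32, adjusted p = 0.293). The dimmest, 1425671_at, gave 5.196, 3.183 and 5.124 against 20.63, 17.14 and 15.77, and was below the level needed to be tested. Which of these probe sets detect Homer1a and which the long forms was not examined.

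The promoters of Homer1, of which 3 probe sets varied together across arrays of both genotypes, and of Dlg4, which held the largest change of a member, are shown side by side. The windows shown reach from 250 bases before to 50 after a transcription start in RefSeq, build GRCm38.p6, and for each gene the window with the highest share of C and G was chosen. Capitals mark TGACG, the core of the cAMP response element through which CREB acts, searched on both strands, where its other strand reads CGTCA. Both windows are on the plus strand, that of Homer1 at chr13:93303507-93303806 and that of Dlg4 at chr11:70018355-70018654.
Homer1: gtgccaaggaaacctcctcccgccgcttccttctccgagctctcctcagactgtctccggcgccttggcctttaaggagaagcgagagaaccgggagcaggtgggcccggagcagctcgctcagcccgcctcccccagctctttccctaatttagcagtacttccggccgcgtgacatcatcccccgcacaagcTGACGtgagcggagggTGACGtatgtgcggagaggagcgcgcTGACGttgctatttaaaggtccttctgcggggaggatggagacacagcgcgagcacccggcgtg
Dlg4: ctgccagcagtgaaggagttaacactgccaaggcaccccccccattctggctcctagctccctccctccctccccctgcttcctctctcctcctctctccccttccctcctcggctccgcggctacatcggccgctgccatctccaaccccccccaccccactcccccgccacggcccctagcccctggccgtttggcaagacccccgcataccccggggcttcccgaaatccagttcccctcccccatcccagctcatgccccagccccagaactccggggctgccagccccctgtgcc

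The Homer1 window, 63% C and G, held TGACG 3 times, beginning at positions -56, -40 and -14 from the start site. At least 3 matches were present in 1.03% of the 32851 windows of this length in the table, and at least 1 in 20.8%. The Dlg4 window, 69% C and G, held 0. Both windows, chosen for their share of C and G, were above the median of 52.7% over the 32851 windows. Windows of like share were not compared, so 1.03% does not say how rare 3 matches are among those. Of all 18 windows listed for 8 of the 10 genes, 1 of the other Dlg4 windows and 1 of Dlg3 held 1 match each, and the remaining windows of Dlg1, Dlg2, Dlg3, Dlg4, Homer1, Homer2, Homer3 and Shank3 held 0. Shank1 and Shank2 had no window there. A match is a run of letters and not a measured binding site.

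Homer2, a long Homer with a coiled coil, had another order of arrays on its bright probe set. On 1424367_a_at the heterozygous arrays gave 265.7, 389.7 and 533.1 and knockout 67, 68 and Ko1 gave 714.7, 465.5 and 184.1. Knockout Ko1 was the lowest array and knockout 67 the highest, so the change of 0.06 ± 0.45 (adjusted p = 0.959) averaged values on both sides of the heterozygous arrays. The second probe set, 1457671_at, ran from 152.4 to 222.6 on heterozygous and from 178.8 to 281.7 on knockout arrays (0.24 ± 0.23, adjusted p = 0.601). The third was dim, at most 24.94 on any array.

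Homer3, the Homer protein of Purkinje cells, had 1 probe set, 1424859_at, near the level needed to be tested. It gave 24.88, 43.38 and 30.16 on heterozygous and 4.602, 32.36 and 41.36 on knockout 67, 68 and Ko1 (-0.32 ± 0.42, adjusted p = 0.692). The low knockout mean came from knockout 67 alone, and without that array the change was 0.13 (adjusted p = 0.849). Knockout 67 was the lowest of the 6 arrays for 5 of the 22 member probe sets, 4 of which were too dim to be tested, and for 16.3% of all probe sets.

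Shank3, the scaffold gene whose loss causes a form of autism, was measured by 1 probe set, 1419137_at. It gave 410.7, 675.2 and 565.4 on heterozygous 75, 76 and 81 and 581.5, 410.8 and 409.9 on knockout 67, 68 and Ko1. The groups overlapped throughout, with a change of -0.22 ± 0.24 (adjusted p = 0.637). The probe sets most like it over the 6 arrays were those of Sesn3, Anapc7, Vangl1, Tiparp and Celf2, at root mean square differences of 0.07 to 0.09. Shank1, the Shank of mature spines, had 1 dim probe set with 10.5, 17.53 and 8.794 on heterozygous and 12.96, 35.4 and 4.589 on knockout 67, 68 and Ko1. Its highest and lowest values were both on knockout arrays, and it was not tested. Shank1, Dlg2 and Homer2 lie on chromosome 7, as Tyrobp does.

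Whether probe sets of 1 gene moved by different amounts was tested directly, on the per-array difference between each tested probe set and the brightest of its gene. Of 8 such pairs among the members 1 passed, against 9.8% of the 8455 pairs of all genes, so 1 of 8 is close to the background. The pair that passed was Dlg2 1421200_at against 1437927_at, which differed in change by 1.54 ± 0.33 (limma adjusted p = 0.0242). Probe set 1421200_at entered the test only through the knockout arrays, where it was higher, and so did 1419581_at of Dlg4. The pairs of these 2 probe sets are therefore read with that limit. With no filter on level the Dlg2 pair had an adjusted p of 0.0367 (limma). For Dlg4, the difference of 1419581_at from 1419580_at was 1.25 ± 0.40, higher on all 3 knockout arrays, and did not pass (adjusted p = 0.0762). Among the Homer1 pairs, 1439662_at stood lower against 1437363_at on all 3 knockout arrays (-0.75 ± 0.32, adjusted p = 0.144). Without knockout Ko1 that difference was -1.04 and passed (adjusted p = 0.0085), where 23.2% of all single probe sets tested passed as well. The other 5 pairs, 1 of Dlg1, 3 of Homer1 and 1 of Homer2, had differences from -0.25 to 0.45 and overlapped.

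The Dlg2 call was lost without heterozygous 75 (adjusted p = 0.104), 76 (adjusted p = 0.0596) or 81 (adjusted p = 0.117) or without knockout 68 (1.23, adjusted p = 0.0867). It was lost too with quantile normalization (1.13, adjusted p = 0.0892), with 64 added (0.78, adjusted p = 0.0806) and without knockout 67 and 68 together (1.28, adjusted p = 0.0595). The Dlg4 pair passed when signals were floored at 1 with nothing added (1.99, adjusted p = 0.0473).

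The proteins that these scaffolds bind were followed in 3 lists. Of 36 genes for scaffold partners (Dlgap proteins, Lin7, Magi, CaMKII and others), 31 were tested with 85 probe sets, of which 2 rose, 1 fell and 82 did not pass. The share called was 3.53%, against 1.98% over all probe sets tested. Zdhhc8, a palmitoyl transferase of the class that acts on PSD-95, fell from 227 to 99.9 on 1451476_at (-1.07 ± 0.18, adjusted p = 0.0352). Its signals were 245.8, 218.9 and 216 on heterozygous and 104.6, 101.7 and 93.32 on knockout arrays, with no overlap. Quantile normalization gave -1.02 (adjusted p = 0.0595), which did not pass, nor did the fits with no filter (adjusted p = 0.0593) and without a trend (adjusted p = 0.0505). On the other Zdhhc8 probe set, 1436468_at, the groups overlapped (-0.21 ± 0.28, adjusted p = 0.712). Lin7c, a small PDZ protein that binds the Dlg complex through Cask, rose on 1449262_s_at (1.24 ± 0.23, adjusted p = 0.0391). On its brightest probe set, 1423322_at, and on 1418898_at the knockout arrays also lay wholly above, and neither passed (0.74 ± 0.19, adjusted p = 0.0808, and 1.24 ± 0.29, adjusted p = 0.0679). The heterozygous mean on 1418898_at, 19.9, was under the level needed to enter the test. That probe set entered only through the knockout arrays, so it is no support for the Lin7c rise. On the remaining Lin7c probe set, 1450937_at, the groups overlapped (-0.11 ± 0.19). Neither quantile normalization (1.04, adjusted p = 0.0822) nor the fit with no filter (adjusted p = 0.0986) kept the Lin7c call. Camk2a, the alpha subunit of CaMKII, rose on the dim probe set 1452453_a_at (1.73 ± 0.35, adjusted p = 0.0475), and on its brightest, 1457311_at, the value was -0.13 ± 0.55. The heterozygous mean on 1452453_a_at, 10.3, was under the level needed to enter the test, so it entered only through the knockout arrays, where it was higher. With no filter it did not pass (adjusted p = 0.0984). The list's median was -0.12.

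Of 26 genes for receptors, channels and adhesion proteins held by these scaffolds, 20 were tested with 43 probe sets, of which 2 rose, 0 fell (limma) and 41 did not pass, with a median of 0.00. The share called was 4.65%, against 1.98% over all probe sets tested. Lgi1, a secreted synaptic protein that binds Adam22 and so the PSD-95 complex, gave 225.1, 196.1 and 199.8 on heterozygous and 465.9, 464.2 and 479.1 on knockout 67, 68 and Ko1 (1.13 ± 0.17, adjusted p = 0.0277). Its other probe set, the brighter 1435851_at, was at -0.70 ± 0.35 (adjusted p = 0.298), and the difference between them passed (1.82 ± 0.37, adjusted p = 0.0222). Kcna2, a potassium channel bound by PSD-93 and PSD-95, rose on 1422197_at (1.67 ± 0.31, adjusted p = 0.0394), while its brightest probe set, 1440759_at, was at 0.09 ± 0.36. The Kcna2 call did not pass after quantile normalization (1.49, adjusted p = 0.0722) or with no filter (adjusted p = 0.0834). The difference between these Kcna2 probe sets passed as well (1.58 ± 0.33, adjusted p = 0.0232).

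Of 8 genes for the inhibitory postsynapse, whose scaffold is gephyrin instead of Dlg, 4 were tested with 8 probe sets, of which 0 rose, 1 fell and 7 did not pass. The share called was 12.5%, from 1 probe set, against 1.98% over all probe sets tested. The summed signal of the list was 3316 to 3401 on heterozygous and 2551 to 2730 on knockout arrays. Only 1 tested probe set of the list, of Nlgn2, lay wholly below on the knockout arrays, and 1 lay wholly above. The lower sum therefore does not stand for the list as a whole. Nlgn2, the neuroligin of inhibitory synapses, fell on 1455143_at from 960.1, 898.6 and 1180 to 403.1, 339.3 and 326.8 (-1.46 ± 0.19, adjusted p = 0.018), and its dimmer probe set was at -0.02 ± 0.30. With median centring the calls of Zdhhc8 and Nlgn2 were kept (limma adjusted p = 0.0257 and 0.0172). Those of Lgi1 (0.72, adjusted p = 0.097), Lin7c (adjusted p = 0.0861), Kcna2 (adjusted p = 0.0571) and Camk2a (adjusted p = 0.0532) were lost. All 6 partner calls were kept when knockout Ko1 was dropped. Dropping heterozygous 75, 76 or 81 or knockout 67 or 68 ended all 6, where the calls over all probe sets tested numbered 29 without heterozygous 76 and 0 without each of the others. Without knockout Ko1 the count over the 3 lists became 36, where 23.2% of all probe sets tested passed. Of 81 pairs of probe sets in the 3 lists, 9 passed (11.1%), near the 9.8% of all pairs.

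**Figure D4:**
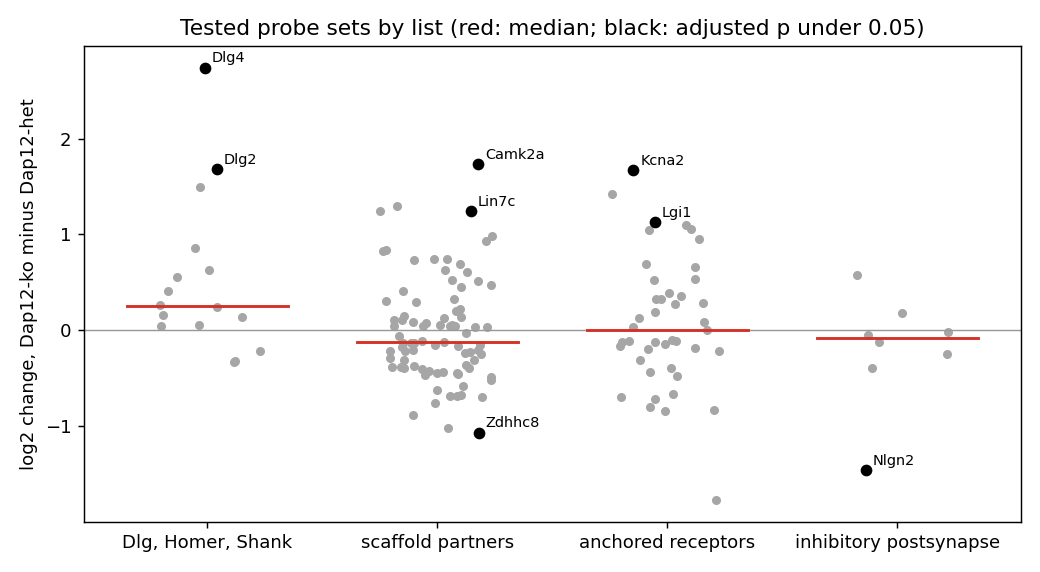
Log2 change, knockout minus heterozygous, of each tested probe set in 4 lists of postsynaptic genes (16, 85, 43 and 8 probe sets); black points had an adjusted p under 0.05 and are labelled, and red lines are medians. Points stand on both sides of 0 in each list, with medians of 0.25, -0.12, 0.00 and -0.09.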

How the data were processed

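Each array's deposited value is a signal intensity on a linear scale, made by the authors with GCOS, the Affymetrix software, per the submitters' processing notes. Its version and summary method are not given in the sources used here. Arrays had been scaled to 1 trimmed mean (2% off each end), which was kept. Genes were named from the platform annotation, where 34945 probe sets had 1 symbol, 932 several and 9160 none. Control probe sets were left out, and 50% of the others were removed by their mean log2(signal + 16).

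Changes were fitted with limma 3.58.1 in R 4.3.3 (eBayes with trend, two-sided) over all 6 arrays and adjusted by Benjamini-Hochberg. For pairs of probe sets the trend used the pair's mean level. Alternatives were quantile normalization, median centring, 64 added or a floor of 1 in place of 16 added, other filters, eBayes without trend or robust, array weights, 1 probe set per gene, and leaving out arrays. Both fits were tested on simulated data. Named were all member probe sets, partners that passed (up to 6 a list), Tyrobp and the 5 most alike probe sets of the lead member in each direction; other probe sets of a named gene and the marker genes were chosen after their values were seen. Members and lists were chosen with earlier results of these data known. The number of arrays limits the precision.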

Additional observations from a re-analysis of the deposited data

Results flagged for a closer look

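Of the probe sets for spiked control transcripts, which do not come from the mouse, 43 were above all heterozygous arrays on all 3 knockout arrays. The Homer1 probe set 1425671_at, below the level needed to be tested, had a mean of 17.8 ± 2.51 on knockout arrays and 4.5 ± 1.14 on heterozygous arrays (SD, n = 3), with no overlap. The other 5 untested member probe sets overlapped between the groups. Over all probe sets of the array, 16.9% had all knockout arrays above all heterozygous arrays.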

How the results depend on the processing

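Called among the members were 2 probe sets. The count was 1 with quantile normalization, with median centring and with no filter on level, and 4 with array weights. It was 0 with 75% of probe sets removed (limma; 2 at an unadjusted p under 0.05) and 0 on 1 probe set per gene (1 unadjusted), because neither called probe set enters those fits. It ran from 0 to 3 when 1 array was left out (3 to 5 unadjusted). Of the 8 pairs within a gene, 1 passed. The count was 0 with quantile normalization (limma; 3 unadjusted), with 64 added (2), with 75% removed (1), where the called pair is not tested, and without knockout 67 and 68 (3). It was 2 with a floor of 1, 3 with array weights, and 0 to 2 when 1 array was left out (1 to 4 unadjusted). Of the partner probe sets, 6 passed. The count was 2 with quantile normalization, with no filter and on 1 probe set per gene, 3 with 75% removed and without a trend, 35 with array weights and 10 without knockout 67 and 68, and it ran from 0 to 36 when 1 array was left out (22 to 55 unadjusted). Of all probe sets tested, 1.98% passed, against 21.3% with array weights and 0% to 23.2% when 1 array was left out. In these settings the member and partner counts moved with those of the whole array. The pair count did not always do so. Without knockout 67 it stayed at 1, where 0 of all single probe sets tested passed (limma). For the remaining settings the cause was not tested.

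Signs turned only for probe sets and pairs that were not called. With median centring, Dlg1 1415691_at was at -0.15, Dlg2 1437927_at at -0.26, Dlg3 at -0.35, Homer1 1436387_at at -0.24, Homer2 1424367_a_at at -0.35 and Homer2 1457671_at at -0.16. Without knockout 67 and 68, Dlg3 was at -0.40, Homer1 1439662_at at 0.82, Homer2 1424367_a_at at -0.99 and Homer3 at 0.25. In the same fit the pairs of Homer1 1425710_a_at, 1436387_at and 1421768_a_at with 1437363_at were at -0.27, 0.20 and -0.08. The last of these was at -0.21 with quantile normalization and -0.01 with 64 added, and the Homer2 pair at -0.30 with array weights. When 1 array was left out, changes ran from -0.04 to 0.33 for Dlg2 1437927_at, -0.10 to 0.28 for Dlg3, -0.91 to 0.06 for Homer1 1439662_at, -0.34 to 0.82 for Homer1 1436387_at, -0.36 to 0.58 for Homer2 1424367_a_at and -0.61 to 0.13 for Homer3. The pair of Homer1 1421768_a_at ran from -0.14 to 0.48 and that of Homer2 from -0.34 to 0.44. No paired analysis was possible because the groups share no replicate number.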
